A study of Mus musculus with 11 samples.

Results

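The nuclear factor I (NFI) family of the mouse consists of 4 transcription factor genes, Nfia, Nfib, Nfic and Nfix, out of the 22380 protein-coding genes of the annotation. The open chromatin regions of the family were selected by position: a region was taken when it overlapped the body of a member, extended by 50 kb on each side, by at least 1 bp on genome build mm9. This gave 189 of 131942 regions, 62 at Nfia, 59 at Nfib, 20 at Nfic and 48 at Nfix. Every region had a peak in at least 1 of 5 ATAC-seq libraries, so the peak calls themselves chose the regions, and their scores are given here as a description without any test.

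ATAC-seq, which marks open chromatin by the insertion of a transposase, was analysed in dopaminergic (DA) and serotonergic (5-HT) neurons sorted from mouse embryos at embryonic day 14.5. DA neurons were GFP+ cells of the ventral mesencephalon of TH-GFP embryos, in which the Th promoter drives GFP in a line kept on the C57BL/6J background. 5-HT neurons were YFP+ cells of hindbrain rhombomeres r1 to r3 from Mash1-CRE x ROSA YFP embryos. In both lines, transgenic males had been mated with Swiss wild-type females, and dissected tissue of several embryos was pooled for each sort. Both sorts select cells by a reporter: GFP follows a transgenic promoter, and YFP stays on in any cell whose lineage has expressed Mash1, a proneural gene that is not restricted to 5-HT neurons. There were 3 DA libraries and 2 5-HT libraries, each from its own sort, and cell type, brain region, mouse line and reporter cannot be told apart in this design. The RNA-seq libraries of the series were not analysed here, so none of the values below is an expression level.

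NFI proteins bind DNA as dimers through a shared N-terminal domain, and each arm of their palindromic site carries the letters TTGGC. In the developing nervous system, Nfia and Nfib are known for the onset of gliogenesis downstream of Sox9, and Nfia, Nfib and Nfix for the timing of progenitor differentiation in cortex, hippocampus and cerebellum. Nfic is best known for its role in the growth of tooth roots.

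In the deposited files, the authors give every region a score per library, and 0 stands for a region without a peak. Peaks were called in 52861, 93055 and 94351 regions of the DA libraries (replicates 1, 2 and 3), and in 38772 and 22879 regions of the 5-HT libraries (replicates 1 and 2). Neither the scale of this score nor the read depth is known, so each score was also expressed as a percentile, the percent of the peaks of the same library that scored at or below it. Since a longer list with more weak peaks raises a percentile, percentiles rank regions within a library, and between libraries the rank from the top (1 for the highest score) is given beside the percentiles of several NFI regions. Ranks have a limit of their own, because no peak of 5-HT replicate 2 can lie beyond rank 22879, so a separation of the groups past that rank is set by the length of the lists. The lowest score of a called peak was 3.45, 3.04 and 3.03 in the DA libraries and 3.37 and 2.83 in the 5-HT libraries, and anything weaker is listed at 0. A region was called DA-only when it had a peak in all 3 DA libraries and in no 5-HT library, 5-HT-only when both 5-HT libraries and no DA library had a peak there, and common when all 5 had. A region open in fewer cells and a region less open in each cell cannot be told apart in sorted populations. At the edge of a window, the nearest region taken lay 402 bp inside the upper end of the Nfic window and had a score only in DA replicate 3, of 3.03. The nearest region left out lay 481 bp beyond the same end, where the DA libraries scored 3.77, 3.97 and 3.11, followed by 4.19 in 5-HT replicate 1 and 0 in 5-HT replicate 2.

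The promoters of cell type markers were described first, taken from 1 kb upstream to 100 bp downstream of each annotated transcription start site (TSS). The promoter of Th, the rate-limiting enzyme of dopamine synthesis, had a DA-only region with scores of 9.91, 10.6 and 8.45, and the promoter of Lmx1a another, with 5.00, 5.62 and 4.09. All 9 DA markers had a promoter peak in each DA library, against 6 of 9 in either 5-HT library. The share of all genes with a promoter peak in a given library was not determined, and the 5-HT libraries have the shorter lists of peaks. The 5-HT markers did not separate the groups in the same way. The promoter of Tph2, which encodes the enzyme of serotonin synthesis, scored 9.91, 7.59 and 11.1 in the DA libraries and 7.09 and 3.59 in the 5-HT libraries. At Slc6a4, the serotonin transporter gene, the promoter region was DA-only, with 4.80, 6.56 and 3.76. Of the 7 5-HT markers, 4, 6 and 4 had a promoter peak in the DA libraries and 6 and 2 in the 5-HT libraries. Gata3 had its highest promoter percentile in 5-HT replicate 2, with 95.5% against 51.5 to 73.6% in DA and 65.1% in 5-HT replicate 1. Weak promoter peaks of Fev, Gata2 and Nkx2-2 also had their highest percentile in a 5-HT library, 5-HT replicate 1, and were absent from 5-HT replicate 2. Thus 2 of 9 DA markers and 1 of 7 5-HT markers had a DA-only promoter region, beside 2.84% of all protein-coding genes. No 5-HT marker had a 5-HT-only one. Promoter peaks test neither the DA nor the 5-HT label, since the expression of the markers was not analysed here. The groups are called DA and 5-HT by their sort. Markers of other cells were also open in both groups. Over all protein-coding genes, 47.9% had a promoter region with a peak in all 5 libraries. All 4 progenitor genes (Sox2, Nes, Vim, Hes5) and 2 of 3 oligodendrocyte lineage genes had a promoter peak in all 5 libraries, as did 2 of 3 GABAergic genes, Gad1 and Gad2. The other GABAergic gene, Slc32a1, had a DA-only region among its promoter regions and no promoter peak in 5-HT replicate 2. The glutamatergic gene Slc17a6 had a promoter peak in all but 5-HT replicate 2. Of the 4 astrocyte and radial glia genes, 1, 3 and 2 had a promoter peak in the DA libraries and 1 and 1 in the 5-HT libraries, and Gfap had none. The noradrenergic gene Dbh had no region in its promoter. No promoter peak was found at the 3 microglial genes or at the endothelial genes Pecam1 and Cdh5, whereas Cldn5 had a peak in all but 5-HT replicate 2. An open promoter is not an expression level, and the part of other cells in the values of the NFI genes was not tested.

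Regions with a peak were dense at all 4 members. The windows held 11.7 regions per 100 kb at Nfia, 11.4 at Nfib, 14.8 at Nfic and 23.9 at Nfix, against a median of 5.81 over all protein-coding genes with the same flanks. At Nfia, peaks were called in 23, 47 and 42 regions in DA and in 24 and 9 in 5-HT. At Nfib, the numbers were 25, 43 and 38 in DA and 25 and 15 in 5-HT. Both genes thus had their lowest count in 5-HT replicate 2, the library with the fewest peaks, and the groups met at DA replicate 1 and 5-HT replicate 1. Nfix differed from them, since 23, 38 and 20 regions had a peak in DA and 25 and 21 in 5-HT, so that the 5-HT counts lay within the DA range. Nfic, the shortest gene with 34.8 kb, had 10, 17 and 13 in DA and 12 and 9 in 5-HT.

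**Figure D1:**
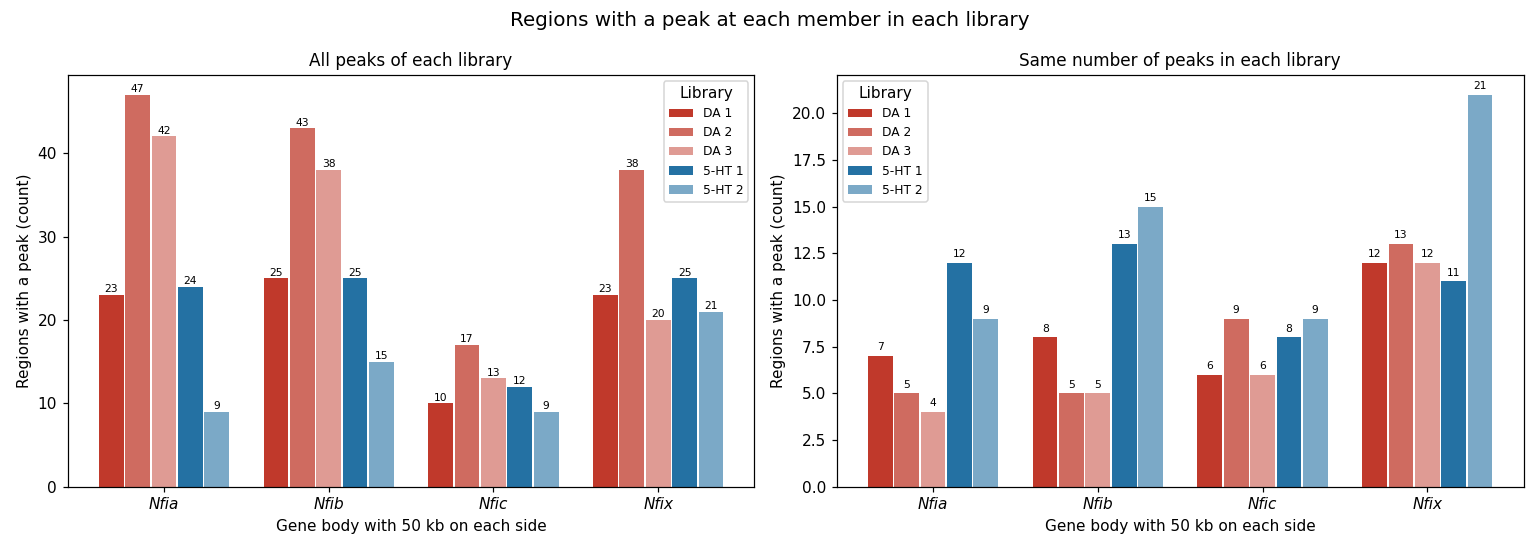
Number of regions with a peak in the window of each NFI gene (y axis, count) in each library (bars, red for DA and blue for 5-HT), for all peaks (left) and for the 22879 highest-scoring regions of each library (right). With all peaks, the 5-HT counts overlap the DA counts at each gene except in 5-HT replicate 2 at Nfia, Nfib and Nfic; at the same number of peaks, the 5-HT bars of Nfia (12 and 9) and Nfib (13 and 15) stand above their DA bars.

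Over the 4 loci, 16 of 189 regions (8.47%) were DA-only, beside 13.4% of all regions. This count depended on single libraries, with 35 (18.7%, beside 25.5% of all regions) without DA replicate 1 and 33 (18.9%, beside 21.6%) without 5-HT replicate 1. The 16 regions were divided into 7 at Nfia, 7 at Nfib, 1 at Nfic and 1 at Nfix. Nearly all of them lay inside the genes, with 14 in introns, 1 in an exon and 1 in a flank. Among all regions in bodies of protein-coding genes outside promoters, 15.6% were DA-only, and 14 of 132 intronic regions of the family (10.6%) were. There were 3 5-HT-only regions, 2 at Nfix and 1 at Nfib, all intronic. This class made up 0.389% of all regions and 0.466% of those in gene bodies outside promoters. Without 5-HT replicate 2 there were 17 in the family (9.29%, beside 3.91% of all regions), without 5-HT replicate 1 there were 9 (5.14%, beside 1.68%) and without DA replicate 2 there were 5 (3.14%, beside 0.793%). A total of 35 regions (18.5%) were common to the 5 libraries, against 12.8% of all regions, with 8 at Nfia, 9 at Nfib, 7 at Nfic and 11 at Nfix. Of these 35, 12 overlapped the promoter of another gene, all but 1 of them in the flanks of Nfic and Nfix. Another 69 regions had a peak in a single library, but the share of such regions among all regions was not determined. The shares of the DA-only, 5-HT-only and common classes were not tested, since an exact permutation test of 3 against 2 libraries cannot give a p below 0.1.

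The 23 TSSs of protein-coding transcripts of the family had peaks in their promoters in 13 cases in all 5 libraries, 8 of 9 at Nfia, 3 of 4 at Nfib, 2 of 5 at Nfix and 0 of 5 at Nfic. TSSs that lie close together share a region, and the 13 TSSs rested on 4 regions. Counted by gene, Nfia, Nfib and Nfix had a promoter region common to the 5 libraries and Nfic had none, beside 47.9% of all protein-coding genes. None of the 4 genes had a DA-only promoter region, a state found at 2.84% of protein-coding genes.

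Nfia (chr4:97439425-97868605, plus strand, ENSMUSG00000028565.11) had the highest-scoring promoter region of the family in each library. Its first annotated start, at position 97439425, lay in a region of 1701 bp at chr4:97438555-97440255. The scores there were 14.2, 12.6 and 13.2 in DA, and 6.04 and 5.37 in 5-HT. They corresponded to percentiles of 97.7, 95.0 and 97.4% in the DA libraries and 78.1 and 84.4% in the 5-HT libraries. By rank from the top it was at 1220, 4631 and 2470 in DA and 8474 and 3561 in 5-HT, so that 5-HT replicate 2 lay within the DA range. This was the only one of the 8 promoter regions of the family that stayed common when the same number of peaks was kept in each library. The main cluster of 7 starts, between positions 97444299 and 97444595, lay in a wider and weaker region of 2260 bp at chr4:97443594-97445853, which also covers the promoter of the divergent gene E130114P18Rik. It scored 4.52, 4.97 and 4.34 in DA and 4.45 and 3.17 in 5-HT. The corresponding percentiles were 37.8, 58.7 and 56.8% in DA and 49.2 and 23.0% in 5-HT. They overlapped between the groups, and the DA ranks, 32861, 38415 and 40720, all lay beyond the length of the list of 5-HT replicate 2, so that ranks could not compare the groups here. A ninth start, at position 97546810, belongs to an annotated transcript and had no region in its promoter window.

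Most of the other Nfia regions lay in its long introns, 54 of 62. Of these, 6 were DA-only (11.1%), beside 15.6% of all regions in bodies of protein-coding genes outside promoters, and 4 were common. A further 26 had a peak in a single library, 22 of them in a DA library. The share of such regions among all regions was not determined, and the DA libraries have the longer lists of peaks. The 3 intronic DA-only regions with the highest values in their lowest DA library were found at chr4:97713881-97714378 (scores 5.58, 4.73 and 4.06), chr4:97769347-97769658 (3.97, 3.63 and 3.81) and chr4:97521161-97521702 (3.90, 3.74 and 4.59). Their DA percentiles ranged from 20.5 to 60.9%, so that none was among the stronger peaks of its libraries. The DA-only region of the downstream flank, chr4:97890060-97890612, was of the same kind, with scores of 4.34, 3.34 and 4.41. Outside the promoters, the regions with the highest percentile in their lowest library lay upstream, inside the gene E130114P18Rik. At chr4:97417716-97418864, 20561 bp before the first start, the scores were 6.05, 8.65 and 5.56 in DA and 5.55 and 4.55 in 5-HT. At chr4:97412208-97413195, they were 5.77, 7.72 and 5.91 in DA and 4.74 and 6.08 in 5-HT. As percentiles, both regions overlapped between the groups. The second region reached its highest percentile, 89.9%, in 5-HT replicate 2. No 5-HT-only region was found at Nfia.

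**Figure D2:**
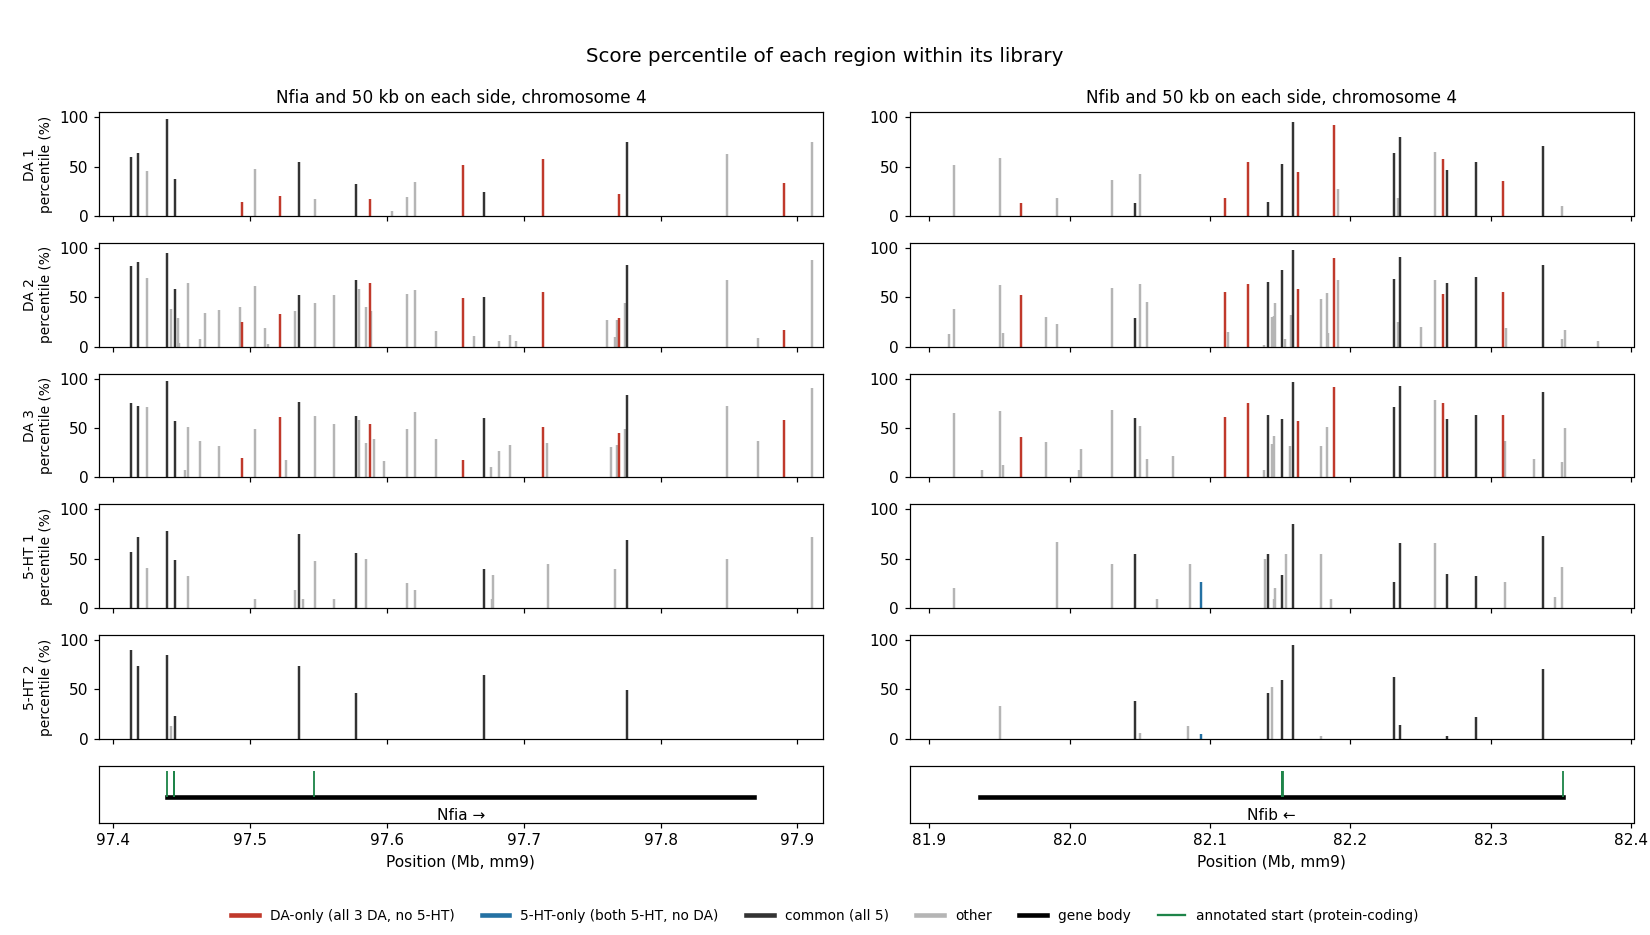
Regions at Nfia (left) and Nfib (right) by position on chromosome 4 (x axis, Mb, mm9) and by score percentile within each library (y axis, %), with a row per library, the gene body as a black line and annotated protein-coding starts in green. Red lines are DA-only, blue lines 5-HT-only, black lines common and grey lines other regions; the tall red line of Nfib is the region at chr4:82187996-82188271, at 92.0, 89.5 and 91.0% in the DA libraries.

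Nfib (chr4:81936077-82351654, minus strand, ENSMUSG00000008575.10) held the strongest DA-only region of the family. This region, chr4:82187996-82188271, had a width of only 276 bp. It scored 10.4, 9.75 and 8.99 in the DA libraries and 0 in both 5-HT libraries. In percentiles, the DA values of 92.0, 89.5 and 91.0% lay close together. The region was picked as the highest of the 16 DA-only regions of the family, so it does not stand for them. The medians of these 16 were 34.4, 54.3 and 57.4% in the DA libraries. Over the 17616 DA-only regions of the files they were 38.4, 58.5 and 61.9%. The picked region was also the only DA-only region of the Nfib window when the same number of peaks was kept in each library. It lies 36322 bp upstream of the main start at position 82151674, in an intron of the longer annotated transcript and inside the gene Gm11266. Its whole sequence is printed on the plus strand and holds no TTGGCA word.
Nfib, chr4:82187996-82188271: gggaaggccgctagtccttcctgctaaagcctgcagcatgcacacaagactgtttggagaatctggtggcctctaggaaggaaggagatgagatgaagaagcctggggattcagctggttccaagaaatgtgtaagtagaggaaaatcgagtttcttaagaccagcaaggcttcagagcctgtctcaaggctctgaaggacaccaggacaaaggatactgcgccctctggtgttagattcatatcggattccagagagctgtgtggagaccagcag

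The other DA-only regions named at Nfib were intronic and weaker. The region chr4:82126557-82126997 scored 5.39, 5.39 and 5.97, and chr4:82265518-82265913 scored 5.60, 4.62 and 5.96. Their DA percentiles lay between 53.3 and 75.7%. The 4 remaining DA-only regions of Nfib had a lowest DA percentile of 13.6 to 44.0%.

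The promoter region of Nfib was the widest of the family, with 3067 bp at chr4:82150096-82153162 around the 3 main starts. Its scores were 5.29, 7.01 and 4.50 in DA and 3.97 and 3.94 in 5-HT. The percentiles of 52.8, 77.5 and 59.5% in DA and 33.7 and 59.1% in 5-HT overlapped, as did the ranks of 24963, 20907 and 38229 in DA and 25720 and 9352 in 5-HT. Hence the Nfib promoter was open in all libraries, well below the highest peaks of each. A higher peak lay 7033 bp upstream of the main starts, at chr4:82158707-82159526, again inside Gm11266. It scored 11.8, 16.4 and 12.4 in the DA libraries and 6.71 and 7.38 in the 5-HT libraries. With percentiles of 95.0, 98.1 and 96.8% in DA and 84.6 and 95.2% in 5-HT, it was the highest region of the Nfib window in each library. Its ranks, 2631, 1779 and 3052 in DA and 5967 and 1100 in 5-HT, did not separate the groups. The central 300 bases are shown because this peak exceeded the annotated promoter in all 5 libraries. They are rich in G and C (74.0%) and contain a repeat of the unit tgtc over 44 bp.
Nfib, chr4:82158966-82159265: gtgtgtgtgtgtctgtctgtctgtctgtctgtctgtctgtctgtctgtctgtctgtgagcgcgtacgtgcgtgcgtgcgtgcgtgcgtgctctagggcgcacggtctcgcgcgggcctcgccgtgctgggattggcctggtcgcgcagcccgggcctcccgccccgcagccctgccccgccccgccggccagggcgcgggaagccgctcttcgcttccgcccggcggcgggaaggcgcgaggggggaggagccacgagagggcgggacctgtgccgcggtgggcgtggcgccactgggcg
Further from the main starts, the region chr4:82336066-82338018 had the next highest percentile in its lowest library, 70.2%, with scores of 6.71, 7.87 and 7.65 in DA and 5.64 and 4.38 in 5-HT. The distal start at position 82351654 had no region in its promoter window.

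A single 5-HT-only region was found at Nfib, in an intron at chr4:82093200-82093594. It scored 3.79 in 5-HT replicate 1 and 2.90 in 5-HT replicate 2, or percentiles of 26.3 and 4.62%. Both values were low in their libraries, and the second was just above the lowest score called. The central 200 bases are shown.
Nfib, chr4:82093297-82093496: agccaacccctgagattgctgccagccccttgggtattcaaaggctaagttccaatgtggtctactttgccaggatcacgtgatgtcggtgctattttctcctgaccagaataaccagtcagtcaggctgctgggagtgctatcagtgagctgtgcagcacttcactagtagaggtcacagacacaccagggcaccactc

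Nfix (chr8:87223775-87324243, minus strand, ENSMUSG00000001911.9) had 1 DA-only region among 48, and 2 among the 27 kept at the same number of peaks. Both 5-HT-only regions of Nfix were intronic. At chr8:87268028-87268202, the scores were 3.63 and 4.23 in 5-HT, with percentiles of 19.0 and 66.7%. At chr8:87252288-87252696, they were 3.37 and 3.29, with percentiles of 9.36 and 31.1%. The 3.37 of this second region in 5-HT replicate 1 equals the lowest score called there, so the region rests on the weakest kind of peak in that library. The first region, of 175 bp, is given whole, with the TTGGCA word in capitals, followed by the central 200 bases of the second, which has none.
Nfix, chr8:87268028-87268202: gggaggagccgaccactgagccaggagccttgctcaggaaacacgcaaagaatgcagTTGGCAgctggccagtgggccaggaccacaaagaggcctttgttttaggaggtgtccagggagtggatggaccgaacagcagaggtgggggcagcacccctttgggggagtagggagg
Nfix, chr8:87252392-87252591: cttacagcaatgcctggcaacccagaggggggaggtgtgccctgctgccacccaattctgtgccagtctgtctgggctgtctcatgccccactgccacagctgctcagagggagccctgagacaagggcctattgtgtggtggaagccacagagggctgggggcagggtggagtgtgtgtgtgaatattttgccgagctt

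The DA-only region of Nfix, chr8:87223776-87224021, lay at the 3′ end of the annotated gene, in an exon of a transcript without a coding sequence. It scored 5.15, 8.18 and 6.20, with DA percentiles of 50.4, 83.7 and 77.6%, the lowest of them in DA replicate 1. This region is printed because it is the DA-only region of the gene, and it holds no TTGGCA word.
Nfix, chr8:87223776-87224021: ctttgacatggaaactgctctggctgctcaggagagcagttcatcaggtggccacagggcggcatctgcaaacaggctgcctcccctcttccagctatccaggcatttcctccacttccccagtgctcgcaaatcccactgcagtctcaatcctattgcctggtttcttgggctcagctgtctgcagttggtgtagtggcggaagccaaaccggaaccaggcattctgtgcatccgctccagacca

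The promoter region at the main Nfix starts, chr8:87297781-87298790, was common to the 5 libraries. The scores there were 6.49, 6.55 and 5.47 in DA and 4.57 and 3.31 in 5-HT. The percentiles of 68.8, 74.4 and 71.4% in DA were above those of 52.4 and 32.4% in 5-HT, but not the ranks, at 16519, 23834 and 26987 in DA and 18475 and 15465 in 5-HT, which overlapped. Next to it, chr8:87299128-87300086 had a peak only in DA replicates 1 and 2, with 3.85 and 4.64. The distal starts at positions 87323923 to 87324243 shared a weak region, chr8:87323677-87324683, with 3.48 and 3.20 in DA replicates 2 and 3, 3.94 in 5-HT replicate 1 and 0 in the other two libraries. The intronic region chr8:87232812-87233803, picked after its values were seen, had the highest percentile within the body of Nfix in each library, with 81.8, 87.1 and 87.1% in DA and 69.4 and 76.9% in 5-HT.

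Nfic (chr10:80858931-80893750, minus strand, ENSMUSG00000055053.10) had no promoter region common to the 5 libraries. No region overlapped the promoters of its main starts, at positions 80889859, 80889918 and 80889932. The most upstream start, at position 80893750, lay in a region of 1774 bp, chr10:80892810-80894583, with scores of 4.32, 5.07 and 3.49 in DA, 4.14 in 5-HT replicate 1 and 0 in 5-HT replicate 2. Its percentiles were 33.0, 60.1 and 34.0% in DA and 39.8% in 5-HT replicate 1. A downstream start at position 80870386 had a peak in DA replicate 2 only, with a score of 3.77 at chr10:80870040-80870623. The gene also had a DA-only region, at chr10:80874173-80875200 in an intron and overlapping the gene Gm16104, with 4.01, 3.67 and 3.48. A much higher peak lay 1607 bp upstream of the gene, at chr10:80895357-80896101, a region picked after its values were seen. It scored 11.5, 12.4 and 12.9 in DA and 6.35 and 5.23 in 5-HT. The percentiles of 94.5, 94.8 and 97.2% in DA and 81.4 and 83.0% in 5-HT were close to those of the first Nfia promoter. The ranks of 2924, 4806 and 2671 in DA and 7203 and 3882 in 5-HT overlapped. With a promoter window from 2 kb upstream to 500 bp downstream, this peak would count as the Nfic promoter. The central 200 bases on the plus strand are shown because this peak exceeded both promoter regions of Nfic in all 5 libraries.
Nfic, chr10:80895629-80895828: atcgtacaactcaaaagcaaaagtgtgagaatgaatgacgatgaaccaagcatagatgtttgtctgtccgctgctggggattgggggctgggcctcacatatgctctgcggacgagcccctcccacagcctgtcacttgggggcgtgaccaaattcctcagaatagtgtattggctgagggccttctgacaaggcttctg

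**Figure D3:**
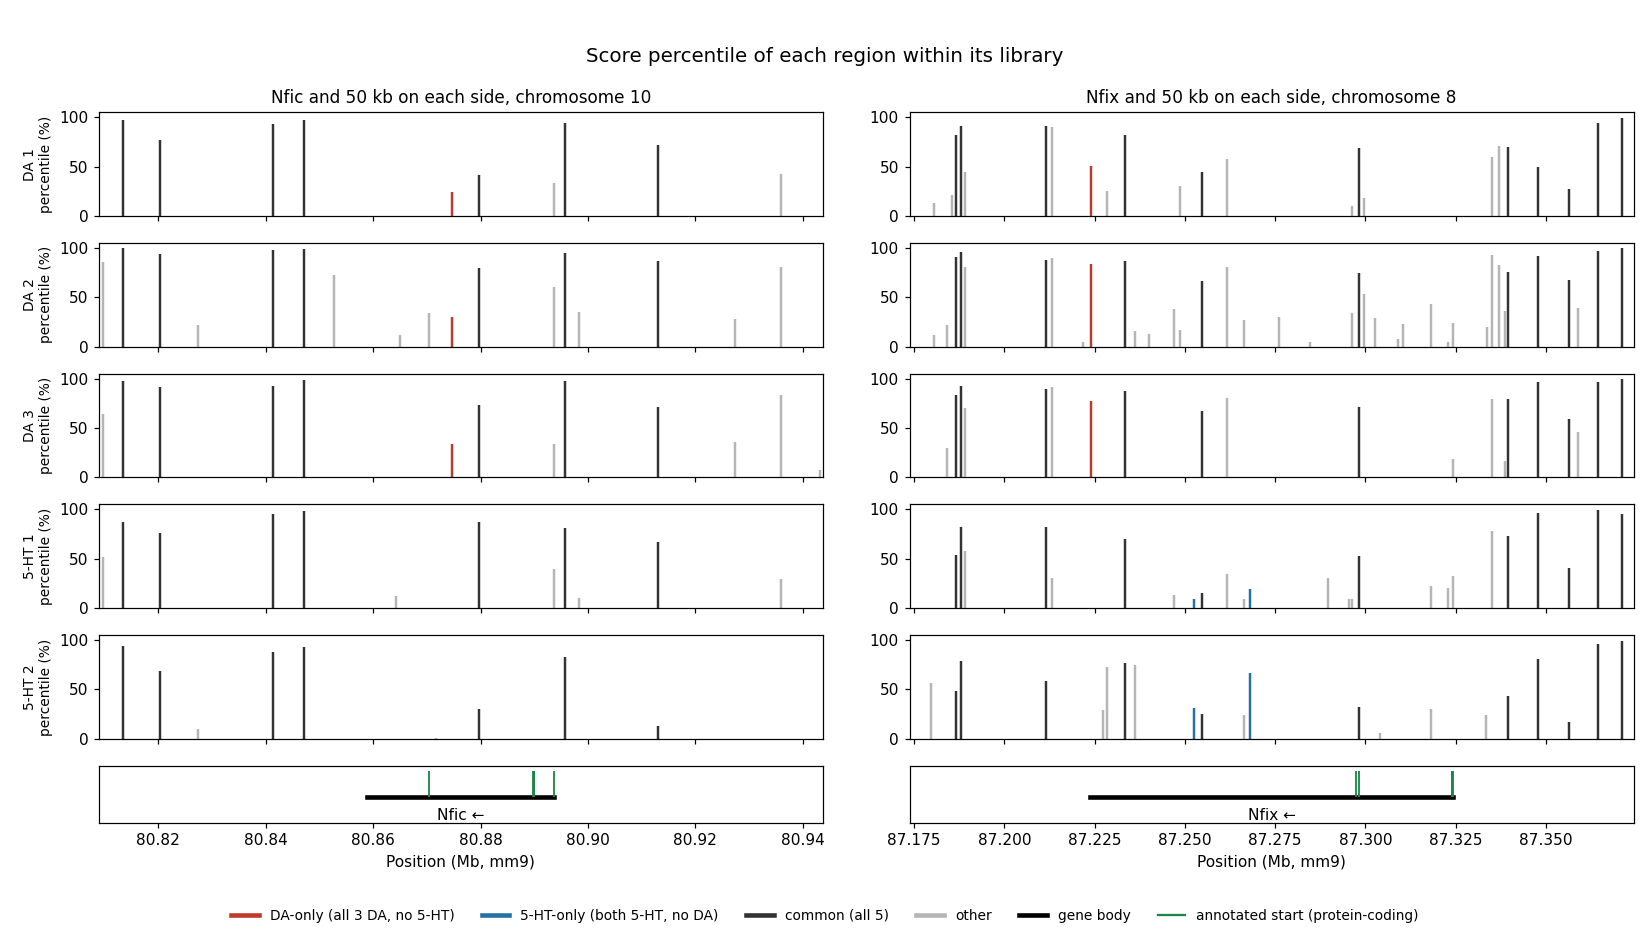
Regions at Nfic (left, chromosome 10) and Nfix (right, chromosome 8) by position (x axis, Mb, mm9) and by score percentile within each library (y axis, %), drawn as for Nfia and Nfib. The tall black lines outside the gene bodies include the promoters of Dohh and Fzr1 next to Nfic and of Calr next to Nfix, and the 2 blue lines inside Nfix are its 5-HT-only regions.

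With the promoter window of 1 kb upstream and 100 bp downstream, the best promoter percentiles of the 4 genes were put in order within each library. Nfia came first in all 5. Nfix came next in DA replicates 1 and 3 and in 5-HT replicate 1, whereas Nfib came next in DA replicate 2 and in 5-HT replicate 2. Nfib and Nfix were therefore not separated beyond the spread between libraries. Nfic was last in all libraries except 5-HT replicate 1, where its 39.8% was above the 33.7% of Nfib. This order depended on the window: with promoters from 2 kb upstream to 500 bp downstream, Nfic came first in 5-HT replicate 1, with 81.4% against 78.1% at Nfia, and next after Nfia in the other 4 libraries.

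Neighbouring genes made up much of the open chromatin in the flanks of Nfic and Nfix, which lie in gene-dense stretches. Of 13 flank regions at Nfic, 6 overlapped the promoter of another gene, and 9 of 21 did at Nfix. At Nfia and Nfib, the 6 and 4 flank regions overlapped none. By the percentile in the lowest library, the highest flank regions of Nfic were the promoters of Dohh (chr10:80846799-80847455; scores 13.5, 20.0 and 15.1 in DA and 10.3 and 6.65 in 5-HT) and Fzr1 (chr10:80840993-80841812; 10.9, 17.0 and 9.81 in DA and 8.73 and 5.81 in 5-HT). For Nfix it was the promoter region of Calr (chr8:87370421-87371483; 17.3, 23.2 and 17.6 in DA and 8.76 and 10.9 in 5-HT). The lowest percentile of these 3 regions over the 5 libraries was 88.2%. The promoter region of Hmg20b, chr10:80812809-80813817, picked after its values were seen, scored higher than those of Dohh and Fzr1 in DA replicates 1 and 2 and in 5-HT replicate 2, with 13.8, 22.2 and 6.94. With flanks of 10 kb in place of 50 kb, the common regions of the family fell from 35 (18.5%) to 20 (13.1%, beside 12.8% of all regions). Still counted were 15 of 16 DA-only regions (9.80% of the regions then taken, beside 13.4%) and all 3 5-HT-only regions (1.96%, beside 0.389%).

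To take the unequal number of peaks into account, the 22879 highest-scoring regions of each library were kept, as many as 5-HT replicate 2 had. The lowest score kept was then 5.54, 6.70 and 5.97 in the DA libraries, 4.18 in 5-HT replicate 1 and 2.83 in 5-HT replicate 2. Of the 189 regions, 77 were still in the list of at least 1 library. Nfia retained 7, 5 and 4 regions in DA and 12 and 9 in 5-HT. Nfib retained 8, 5 and 5 in DA and 13 and 15 in 5-HT. At both genes, the 5-HT counts were all above the DA counts, a state seen at 10.8% of the gene windows with at least 10 regions, while the DA counts were all above in 9.83%. The counts overlapped at Nfic (6, 9 and 6 against 8 and 9) and at Nfix (12, 13 and 12 against 11 and 21). There were 3 DA-only regions of 77 (3.90%), beside 6.94% of all regions kept. Only 1 of them was among the 16 of the full lists, the strong Nfib region. The others, which entered the class because a peak of 5-HT replicate 1 (scores 3.99 and 3.90) was no longer kept, were an Nfix intron region at chr8:87261530-87261858, picked after its values were seen, and a flank region at the promoter of Trmt1. There were 5 5-HT-only regions (6.49%, beside 5.79%), and 16 (20.8%, beside 27.0%) were common. None of the 5 5-HT-only regions was among the 3 regions of the full lists. All 5 had peaks in at least 2 DA libraries and passed to this class because their DA scores fell under the lowest score kept, among them the promoter region of the main Nfia starts.

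The regions were then searched for the words that NFI proteins bind. The word TTGGCA, on either strand, was found in the central 200 bp of 33 of 189 regions (17.5%, 95% Wilson interval 12.7 to 23.5%), and of 13.4% of all 131942 regions. It was found at 12 of 62 regions of Nfia, 12 of 59 of Nfib, 2 of 20 of Nfic and 7 of 48 of Nfix. The median GC content of the windows was 46.5, 48.5, 64.5 and 59.8% in the same order, and 49.0% over all regions. Of the 16 DA-only regions of the family, 5 had the word (31.3%, interval 14.2 to 55.6%), against 13.8% of all DA-only regions. Within the central 500 bp the same count of 5 of 16 stood beside 29.6% of all DA-only regions, so the difference seen in the shorter window was not found in the longer one. Of the 3 5-HT-only regions, 1 had the word in the central 200 bp, as did 29.4% of all 5-HT-only regions. Among the common regions it was 5 of 35, against 9.02% of all common regions, and 11 of 35 against 20.5% within the central 500 bp. The intervals cover counting error only. The sites in the central 200 bp of these 5 DA-only regions (words outside this window are left out) are shown with 10 bases on either side and on the strand that carries TTGGCA, in capitals. They lay at chr4:97587433-97587458 (plus strand) and chr4:97714181-97714206 (minus) in Nfia, at chr4:82110412-82110437 (plus) and chr4:82265696-82265721 (minus) in Nfib, and at chr10:80874720-80874745 (minus) in Nfic.
Nfia, chr4:97587433-97587458: agacctaagtTTGGCAgccctaagtt
Nfia, chr4:97714181-97714206: tctaaaatgcTTGGCActgtgtgttt
Nfib, chr4:82110412-82110437: caacatctgcTTGGCAgcttttcaag
Nfib, chr4:82265696-82265721: tagctcatctTTGGCAatatcaagaa
Nfic, chr10:80874720-80874745: tggggaggtaTTGGCActgtgttcct

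Over their whole length, 72 of the 189 regions held TTGGCA, with 119 occurrences in all, and this was not counted for all regions. The most, 6, were counted in the common region chr4:82140369-82142125 of Nfib. The full palindrome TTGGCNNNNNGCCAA was absent from the central 200 bp of all 189 regions and present in those of 0.0637% of all regions. It occurred once over the whole length, in the common intronic region chr4:97534820-97536164 of Nfia, which scored 5.41, 4.59 and 6.07 in DA and 5.77 and 4.57 in 5-HT. This site, at chr4:97535950-97535964 and 465 bp from the centre of the region, is shown in capitals with 10 bases on each side on the plus strand. A match of letters does not show that a protein bound there.
Nfia, chr4:97535940-97535974: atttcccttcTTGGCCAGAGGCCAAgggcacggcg

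The protein-coding genes whose numbers of peaks in the 5 libraries were most like those of a member were found by the Euclidean distance of log2(1 + number of regions with a peak), with the same flanks. Windows that overlapped the member were left out. Overlap among the windows of the like genes was not checked, so genes named together may share regions and are not separate examples. For Nfia they were Fyn, Mcc and Atxn7l1, at distances of 0.38 to 0.42. For Nfib they were Kcnd3, Klhl29 and Frmd4a, at 0.28 to 0.43. Nfic had closer neighbours in this measure, among them Wdr90 and Vasp, both at 0.17. Nfix had the most distant, Igsf8, Kcnj10 and Kcnj9, at 0.88 to 0.96, which had 28, 27 and 26 regions in DA replicate 2 against 38 at Nfix. Igsf8, Kcnj10 and Kcnj9 had 30, 26 and 27 in DA replicate 3 against 20 at Nfix. In 5-HT replicate 2 these genes had 15, 13 and 14 against 21 at Nfix.

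Of 14 genes known as inducers, partners or targets of NFI proteins, 7 had a promoter region common to the 5 libraries, 1 had a DA-only and none a 5-HT-only promoter region, beside 47.9% of all protein-coding genes with a common and 2.84% with a DA-only one. Sox9, which acts with Nfia in gliogenesis, was common, with 4.38, 4.89 and 4.53 in DA and 4.92 and 4.41 in 5-HT. Its percentiles, 34.5, 57.5 and 59.9% in DA and 60.7 and 70.8% in 5-HT, are not compared between the groups, because its DA ranks, 34642, 39583 and 37854, all lay beyond rank 22879. The other common ones were Apcdd1, Fabp7, Hes1, Ezh2, Bbx and Cdh2. Ezh2 was the highest, with percentiles of 93.5, 97.4 and 97.1% in DA and 90.1 and 88.8% in 5-HT. Insc was the DA-only gene, with 5.32, 3.48 and 4.47. Slc1a3 and Cntn2 had a promoter peak in all libraries but 5-HT replicate 2, Zcchc24 in DA replicates 2 and 3 and 5-HT replicate 1, and Mmd2 and Gabra6 in DA replicate 2 alone. The glial gene Gfap had no region in its promoter.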

How the data were processed

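The authors trimmed paired-end ATAC-seq reads with Trimmomatic, checked them with FastQC, aligned them with Bowtie2 to mm9, removed duplicates using Picard, called peaks per library with MACS2, merged nearby peaks with BEDOPS and annotated them with HOMER mm9 features. Versions and the threshold for calling peaks are not given in the sources used here, nor whether reads were shifted for the transposase. For each library they deposited a score per region, of unnamed scale, over the same list of 131942 regions. In these files, 1 line with a misspelled chromosome name was corrected.

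Genes, transcripts and exons were taken from the GENCODE annotation for mm9, and sequences from the mm9 genome. A region was a promoter region when it overlapped, by at least 1 bp, the stretch from 1 kb upstream to 100 bp downstream of the TSS of a protein-coding transcript of the member, and was otherwise placed by its centre in an exon of any transcript, an intron or a flank. No test was made. The rule for named regions took all promoter and 5-HT-only regions, per gene the 3 DA-only regions of the body and 2 of the flanks with the highest percentile in their lowest DA library, and 2 regions outside promoters with the highest percentile in their lowest library. The members, gene lists and rule were chosen with earlier results of these data known. Alternatives were an equal number of peaks, merged regions, flanks of 10 and 100 kb, a wider promoter, all transcripts, a score at or above the library's median, a wider window for words, and leaving out each library. Ranks from the top, and percentiles among an equal number of regions, were added after seeing the data. Counting and word search were tested on simulated data. Python 3.11.15, NumPy 2.4.6, pandas 2.3.3, SciPy 1.17.1, matplotlib 3.10.9 and samtools 1.23.1 were used.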

Additional observations from a re-analysis of the deposited data

How the results depend on the processing

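The number of DA-only regions in the 4 loci was 16 (8.47%, beside 13.4% of all regions). It was 16 (8.60%) with regions less than 100 bp apart merged, 15 (9.80%) with flanks of 10 kb and 20 (9.17%) with flanks of 100 kb, each beside 13.4%. It was 3 when every library kept equally many peaks (3.90% of regions kept, beside 6.94% of all) and 10 when only scores at or above the library's median counted (11.9%, beside 15.9%). Leaving out a library gave 16 to 35, with 35 (18.7%, beside 25.5% of all regions) without DA replicate 1 and 33 (18.9%, beside 21.6%) without 5-HT replicate 1. The 3 5-HT-only regions were also counted with merged regions and with either flank, and became 5 at the same number of peaks (6.49%, beside 5.79%) and 0 with scores at or above the median (beside 0.286%). Without a library there were 3 to 17: 17 (9.29%, beside 3.91%) without 5-HT replicate 2, 9 (5.14%, beside 1.68%) without 5-HT replicate 1 and 5 (3.14%, beside 0.793%) without DA replicate 2. The 35 common regions became 16 at the same number of peaks (20.8%, beside 27.0%) and 16 with scores at or above the median (19.0%, beside 15.5%). There were 20 with flanks of 10 kb (13.1%, beside 12.8%). Leaving out a library gave 35 to 52, with 52 (28.4%, beside 20.5%) without 5-HT replicate 2. Of 23 TSSs, 13 had a promoter peak in all 5 libraries, 14 with the wider promoter, and 13 to 14 without a library. At the same number of peaks and with scores at or above the median, 1 did. With all transcripts of the genes the number was 18, of a larger number of TSSs. Fewer peaks are counted under either stricter setting by construction, and the cause of other changes was not tested. TTGGCA was found in 32.8% of the regions of the family within the central 500 bp, beside 28.2% of all regions, because a longer window holds more words. Under the wider promoter, 15 of 20 best promoter percentiles moved by less than the spread between replicates, and the 5 that moved were those of Nfic, which rose to 94.5, 94.8 and 97.2% in DA and 81.4 and 83.0% in 5-HT. Nfic then passed Nfia in 5-HT replicate 1. Percentiles among the same number of highest-scoring regions per library, an alternative chosen after seeing the data, moved in 16 of 20 cases, in each of them downward because a shorter list leaves out weak peaks. At Nfia they were 94.7, 79.8 and 89.2% in DA and 63.0 and 84.4% in 5-HT, which overlap where the percentiles among all peaks do not. At Nfix they were 27.8, 0 and 0% in DA and 19.3 and 32.4% in 5-HT, also with overlap. The depth of the libraries is unknown, so a score of 0 means only that no peak was called. No test was made, and no paired analysis was possible because each library came from its own sort and the DA and 5-HT libraries from different mouse lines.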
